A study of Mus musculus with 6 samples.

Results

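The family of miR-148 and miR-152 was followed in white adipose tissue (WAT) of ApoE-deficient mice with and without chronic intermittent hypoxia (CIH). Its members were taken by the miRBase accession of the mature strand, which gave 3 of the 707 mature miRNAs counted: miR-148a-3p (MIMAT0000516), miR-148b-3p (MIMAT0000580) and miR-152-3p (MIMAT0000162). There were 3 control and 3 CIH libraries of small RNA. All came from male mice that lack apolipoprotein E, the protein that clears lipoproteins from blood, so no library shows the family with ApoE present. The CIH mice were kept under repeated cycles of low and normal oxygen for 8 weeks, as a model of obstructive sleep apnea. The labelled extraction text is the same for all 6 libraries and speaks only of the CIH models. The age of the mice and the fat depot are not given in the sources used here, and the labels number the libraries without tying each to a separate mouse, so the spread between them may be technical in part.

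A miRNA is loaded into an Argonaute protein and pairs with target mRNAs mainly through its seed, bases 2 to 8, which lowers their stability and translation. Members of this family share their seed and so share many targets, among them the mRNAs of the LDL receptor, the cholesterol exporter ABCA1 and the DNA methyltransferase DNMT1. miR-148a is known as an abundant miRNA of adipocytes, liver and pancreas, and it favours the formation of adipocytes from their precursors by lowering Wnt ligands.

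The mature strands are shown because their seed is what makes them a family and because so few bases tell their reads apart. The sequences are from RefSeq (build GRCm38.p6), written 5′ to 3′ with the seed in capitals.
miR-148a-3p: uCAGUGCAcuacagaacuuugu
miR-148b-3p: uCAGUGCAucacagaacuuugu
miR-152-3p: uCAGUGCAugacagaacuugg

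The seed CAGUGCA at bases 2 to 8 was found in these 3 of the 1679 named mature mouse miRNAs in the RefSeq table. The same 7 letters stand at bases 1 to 7 of 7 other miRNAs, among them miR-130a-3p, miR-130b-3p and miR-301a-3p, whose seed is therefore shifted by 1 base. Counted from the 5′ end, miR-148a-3p and miR-148b-3p are identical at 20 of 22 bases and differ by C9U and U10C. miR-148a-3p and miR-152-3p are identical at 18 of the 21 bases they share and differ by C9U, U10G and U20G. miR-148b-3p and miR-152-3p differ by C10G and U20G. A read of miR-148a-3p would thus need 2 base errors to read as miR-148b-3p, and how the counting treated mismatches is not given in the sources used here.

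The hairpins are shown because the measured strand lies in the 3′ arm of each (capitals), and because they come from separate loci.
Mir148a: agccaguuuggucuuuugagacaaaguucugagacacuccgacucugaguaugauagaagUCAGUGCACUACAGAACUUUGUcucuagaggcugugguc
Mir148b: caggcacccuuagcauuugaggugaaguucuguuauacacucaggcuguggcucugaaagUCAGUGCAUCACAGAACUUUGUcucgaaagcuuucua
Mir152: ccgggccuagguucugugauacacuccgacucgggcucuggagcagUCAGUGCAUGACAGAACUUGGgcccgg

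Mir148a lies at chr6:51269812-51269910 on the minus strand (mature strand chr6:51269829-51269850), in no gene annotated by GENCODE release M21 other than its own. Its nearest protein-coding genes are Nfe2l3, 162760 bp away, and Npvf, 615373 bp away. Mir148b lies at chr15:103285125-103285221 on the plus strand (mature strand chr15:103285185-103285206), in an intron of Copz1 on the same strand. Mir152 lies at chr11:96850393-96850465 on the plus strand (mature strand chr11:96850439-96850459), in an intron of Copz2 on the same strand. Copz1 and Copz2 encode paralogous zeta subunits of the COPI vesicle coat. Each locus also has a gene of the NFE2 transcription factor family and a gene of the CBX family of chromatin proteins nearby. Nfe2 and Cbx5 lie 26722 and 45309 bp from Mir148b, Nfe2l1 and Cbx1 lie 20425 and 41753 bp from Mir152, and Cbx3 lies 200450 bp from Mir148a on the side of Nfe2l3. These neighbours were picked from the annotation after it was read, and none of them was measured here.

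The libraries held between 636963 and 4783768 counts, and their TMM factors, which correct library totals for differences in composition, lay between 0.575 and 1.45. Control 1 and control 2 stood apart from the other 4 libraries. They had counts for 487 and 552 miRNAs, against 631 to 649 in the other 4, although control 2 held the most counts. Log2 CPM (counts scaled to a common library size) was compared over the 633 miRNAs tested. Control 1 and control 2 correlated with the other 4 libraries at 0.595 to 0.712 and with each other at 0.831. The other 4, control 3 among them, correlated with each other at 0.952 to 0.974. These are correlations across miRNAs, which are not independent replicates. Because the reference used here does not pair the remaining accessions with names, the tissue could not be checked against markers of fat, pancreas, liver or blood, and the opposite arms of the 3 hairpins are not analysed here. Each member is therefore given with all libraries and without control 1, control 2 or both.

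miR-148a-3p was among the leading miRNAs of these libraries. It had 232494, 142733 and 81401 counts in controls 1, 2 and 3 and 247090, 184196 and 87453 counts in CIH 1, 2 and 3. It was the most abundant miRNA of CIH 2, ranked 2 in control 1, CIH 1 and CIH 3, ranked 3 in control 3 and ranked 9 in control 2. As a share of all miRNA counts it took 17.02%, 2.98% and 10.3% of controls 1 to 3 and 15.7%, 25.0% and 13.7% of CIH 1 to 3. The 95% exact binomial interval was widest in CIH 2, from 24.9% to 25.1%, and such intervals cover counting error only. Control 2, the library with the most counts, thus held the smallest share, and the other 5 shares overlapped between the groups. In whole tissue, fewer cells that make a miRNA and less of it per cell cannot be told apart.

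On the TMM-normalized CPM scale, miR-148a-3p was at 295918, 34436 and 73372 in controls 1 to 3 and at 198432, 199016 and 94865 in CIH 1 to 3. Control 1 was the highest of the 6 and control 2 the lowest, 8.59-fold apart, so on this scale the control group enclosed the whole CIH group. As a share of library totals, CIH 2 was the highest instead, at 25.0% against 17.02% in control 1. The largest fold between CIH libraries was 2.10. The group means were 134575 ± 141077 (SD, n = 3) for the controls and 164104 ± 59964 (SD, n = 3) for CIH. The log2 fold change was 0.29 (standard error 1.003, 95% interval -2.11 to 2.69), and edgeR's quasi-likelihood test over all miRNAs tested gave an adjusted p of 0.914. As a linear fold, the interval runs from 0.231 to 6.43. Without control 1 the log2 fold change was 1.65 (adjusted p = 0.941 from the same test), without control 2 it was -0.0947, without control 3 it was -0.0233, and without both control 1 and control 2 it was 1.22, so its size and sign depended on which of these libraries was kept.

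miR-148b-3p was far below miR-148a-3p in every library. It had 1403, 2482 and 1931 counts in controls 1 to 3 and 1992, 2069 and 1253 counts in CIH 1 to 3. These are 0.103%, 0.0519% and 0.244% of controls 1 to 3 and 0.126%, 0.281% and 0.197% of CIH 1 to 3. The counting error of these values was at most 2.83%, small against the spread between libraries.

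After TMM normalization miR-148b-3p was at 1786, 599 and 1741 CPM in controls 1 to 3 and at 1600, 2235 and 1359 CPM in CIH 1 to 3. Control 2 was again the lowest, 2.98-fold below control 1, and the other 5 lay between 1359 and 2235 CPM, with controls 1 and 3 inside the range of the CIH libraries. The means were 1375 ± 673 CPM (SD, n = 3) for the controls and 1731 ± 453 CPM (SD, n = 3) for CIH. The log2 fold change was 0.33 (standard error 0.67, 95% interval -1.28 to 1.95, edgeR adjusted p = 0.889). It was 0.62 without control 1, 0.05 without control 2 and 0.07 without both.

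miR-152-3p was instead at its highest in control 2. It had 2378, 30438 and 1847 counts in controls 1 to 3 and 3023, 1668 and 1568 counts in CIH 1 to 3. Its share was 0.174%, 0.636% and 0.233% of controls 1 to 3 and 0.192%, 0.226% and 0.246% of CIH 1 to 3. Control 2 alone stood out, with 0.636% against at most 0.246% in any other library.

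After TMM normalization miR-152-3p was at 3027, 7344 and 1665 CPM in controls 1 to 3 and at 2428, 1802 and 1701 CPM in CIH 1 to 3. Control 2 was 4.41-fold above control 3 and 3.02-fold above CIH 1, the highest CIH library, and control 3 was the lowest of all 6. As a share of library totals, control 1 was the lowest instead (0.174%) and CIH 3 the highest CIH library (0.246%), so this order depended on the scaling. The means were 4012 ± 2965 CPM (SD, n = 3) for the controls and 1977 ± 394 CPM (SD, n = 3) for CIH. The log2 fold change was -1.02 (standard error 0.75, 95% interval -2.81 to 0.77, edgeR adjusted p = 0.882). Without control 1 it was -1.20, without control 2 it was -0.18, without control 3 it was -1.41 (adjusted p = 0.131 from the same test), and without control 1 and control 2 together it was 0.32.

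**Figure D1:**
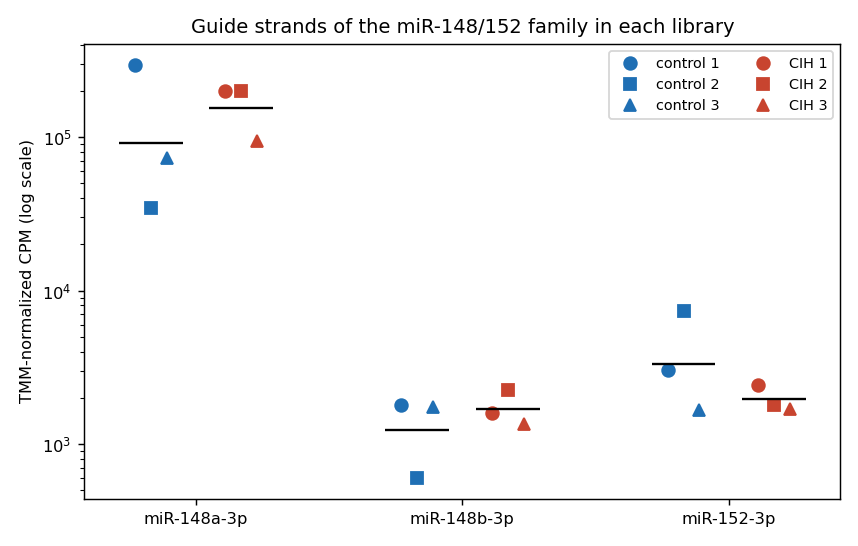
TMM-normalized CPM of the 3 members in each library, on a log axis. Each point is 1 library, the symbol gives its replicate number, and the bar is the mean of the log values of a group. Control 1 and control 2 are the highest and lowest libraries for miR-148a-3p, and control 2 is the lowest for miR-148b-3p and the highest for miR-152-3p.

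None of the 3 members passed an adjusted p of 0.05, and over all 633 miRNAs tested 0 did (0%). Without control 3, 118 of 614 miRNAs did (19.2%), and the adjusted p of the members in that edgeR fit was 0.990 for miR-148a-3p, 0.568 for miR-148b-3p and 0.131 for miR-152-3p. In that fit miR-152-3p alone of the 3 reached an unadjusted p under 0.05, as did 36.6% of all miRNAs tested. With all 6 libraries, at an unadjusted p under 0.05 with a change of at least 1.5-fold, 16 miRNAs passed (2.53%), and the family held 0 of them. The CIH and control libraries overlapped for all 3 members, as they did for most miRNAs tested. The groups did not overlap for 51 of the 633 (8.06%). Of the miRNAs tested, 56.6% had a lower log2 fold change than miR-148a-3p, 57.7% a lower one than miR-148b-3p and 22.3% a lower one than miR-152-3p. The median over all of them was 0.07. Relative to the median of all miRNAs, the log2 fold change lay between 0.14 and 0.52 for miR-148a-3p, 0.22 and 0.31 for miR-148b-3p and -1.28 and -0.96 for miR-152-3p under 6 ways of scaling the libraries. None of these scalings changed the sign of a member relative to that median, although with upper-quartile factors, which moved the median to -0.52, the log2 fold changes of miR-148a-3p and miR-148b-3p themselves were -0.37 and -0.20. A scaling moves all miRNAs by similar amounts, so this says little about how stable the sign is. Leaving out control 2 turned the sign relative to the median for miR-148a-3p (-0.39) and miR-148b-3p (-0.24). It also turned for miR-148a-3p without control 3 (-0.05), and for miR-148b-3p without CIH 2 (-0.0025). Without both control 1 and control 2 it turned for miR-148b-3p (-0.05) and miR-152-3p (0.20). It held for all 3 members without control 1, CIH 1 or CIH 3.

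**Figure D2:**
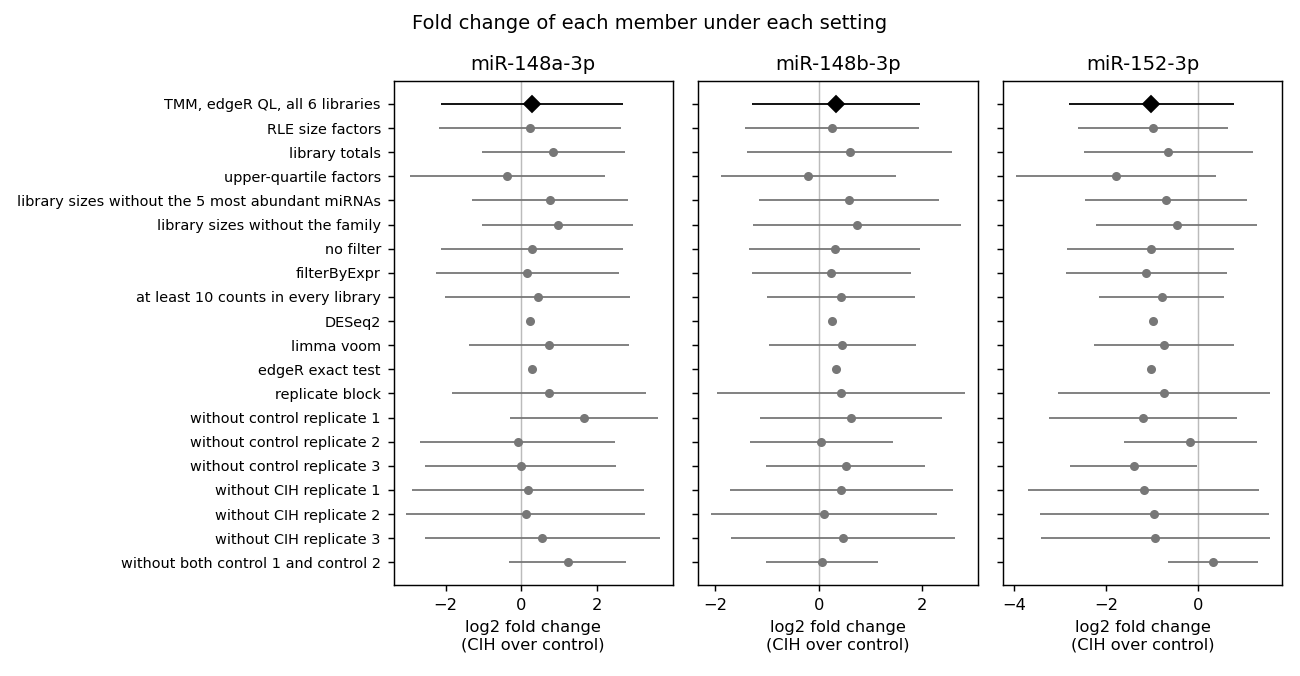
log2 fold change of each member (CIH over control) under each setting, with its 95% interval where the test gives a standard error on the t scale. The diamond is the value with all 6 libraries, TMM factors and edgeR's quasi-likelihood (QL) test. The intervals include 0 in every setting that has one, except the fit of miR-152-3p without control 3.

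Whether the members responded differently was asked with ratios within each library, which need no normalization between libraries. The mature strands are 21 or 22 bases long, so length hardly enters, although library construction can favour some sequences over others. miR-148a-3p exceeded miR-148b-3p by 166-fold, 57.5-fold and 42.2-fold in controls 1 to 3 and by 124-fold, 89.0-fold and 69.8-fold in CIH 1 to 3. The control libraries were both above and below the CIH libraries for this ratio. Its log2 value was 6.20 ± 1.04 (SD, n = 3) for the controls and 6.52 ± 0.42 (SD, n = 3) for CIH.

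miR-148a-3p exceeded miR-152-3p by 97.8-fold, 4.69-fold and 44.1-fold in controls 1 to 3 and by 81.7-fold, 110-fold and 55.8-fold in CIH 1 to 3. Control 2 was far below the rest, and the other 5 libraries ran from 44.1 to 110. The log2 ratio was 4.77 ± 2.27 (SD, n = 3) for the controls and 6.31 ± 0.49 (SD, n = 3) for CIH.

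The ratio of miR-148b-3p to miR-152-3p was 0.590, 0.0815 and 1.05 in controls 1 to 3 and 0.659, 1.24 and 0.799 in CIH 1 to 3. Outside control 2 these 2 members were thus at similar levels, with miR-148b-3p the higher in control 3 and CIH 2 and miR-152-3p the higher in control 1, CIH 1 and CIH 3. The log2 ratio was -1.44 ± 1.93 (SD, n = 3) for the controls and -0.20 ± 0.47 (SD, n = 3) for CIH.

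The difference of the log2 ratios between CIH and control was 0.31 for miR-148a-3p to miR-148b-3p (two-sided exact permutation test, p = 0.7), 1.55 for miR-148a-3p to miR-152-3p (p = 0.3, same exact test) and 1.23 for miR-148b-3p to miR-152-3p (p = 0.4, same exact test). Adjusted over the 3 ratios by Benjamini-Hochberg, these exact p-values were 0.7, 0.6 and 0.6, and the smallest p that 3 libraries against 3 allow is 0.1. No difference in response between members was shown by these tests, which the design keeps from reaching 0.05. Without control 2 the differences were 0.13, 0.28 and 0.14 in the same order, and without control 3 that of miR-148a-3p to miR-148b-3p was -0.0905.

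**Figure D3:**
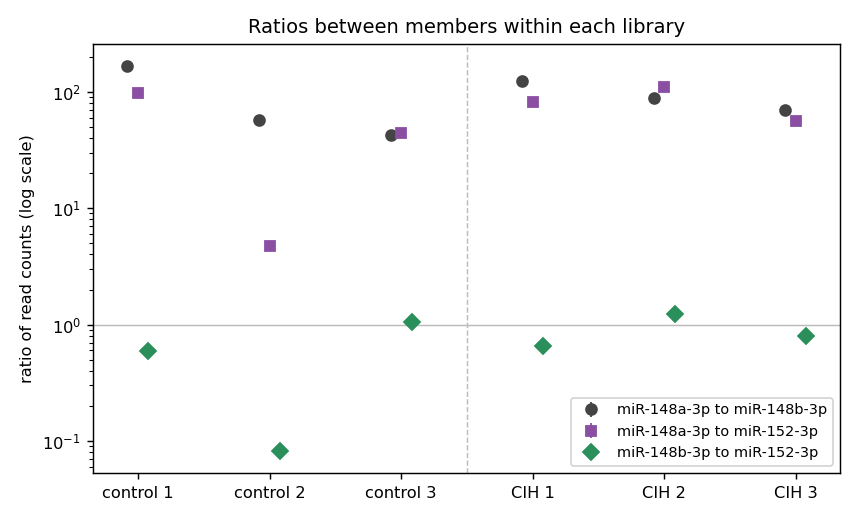
Ratio of the read counts of 2 members within each library, on a log axis, with 95% exact binomial intervals that are mostly smaller than the symbols. The dashed line parts the control from the CIH libraries. Both ratios to miR-152-3p are lowest in control 2, at 4.69 and 0.0815.

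Because miR-148a-3p dominated the family, the counts of the family as a whole followed it. miR-148a-3p made up 98.4%, 81.3% and 95.6% of the family counts in controls 1 to 3 and 98.0%, 98.0% and 96.9% in CIH 1 to 3. In control 2, miR-152-3p held 17.3% of the family, against 0.888% to 2.17% in the other libraries. The seed CAGUGCA of this family was carried by 17.3%, 3.67% and 10.7% of all miRNA counts in controls 1 to 3 and by 16.0%, 25.5% and 14.2% in CIH 1 to 3. The means were 10.6% ± 6.81 (SD, n = 3) and 18.5% ± 6.08 (SD, n = 3), a difference of 7.97 percentage points (two-sided exact permutation test, p = 0.3). Without control 2 the difference was 4.52 percentage points, and control 1 lay above CIH 1 and CIH 3.

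The members were also set against the other miRNAs for their spread over the 6 libraries, as a description without a test. For the 395 miRNAs that averaged 10 CPM or more, the median standard deviation of log2 CPM was 1.13. That of miR-148a-3p was 1.15, above 51.6% of these miRNAs, that of miR-152-3p was 0.82, above 35.7%, and that of miR-148b-3p was 0.66, above 26.6%. Within the CIH group the standard deviation was 0.62 for miR-148a-3p, 0.37 for miR-148b-3p and 0.28 for miR-152-3p, against a median of 0.39. Within the control group it was 1.57, 0.90 and 1.08 in the same order, against a median of 1.43. Each member was more variable in the control group than in the CIH group, as the median miRNA was.

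**Figure D4:**
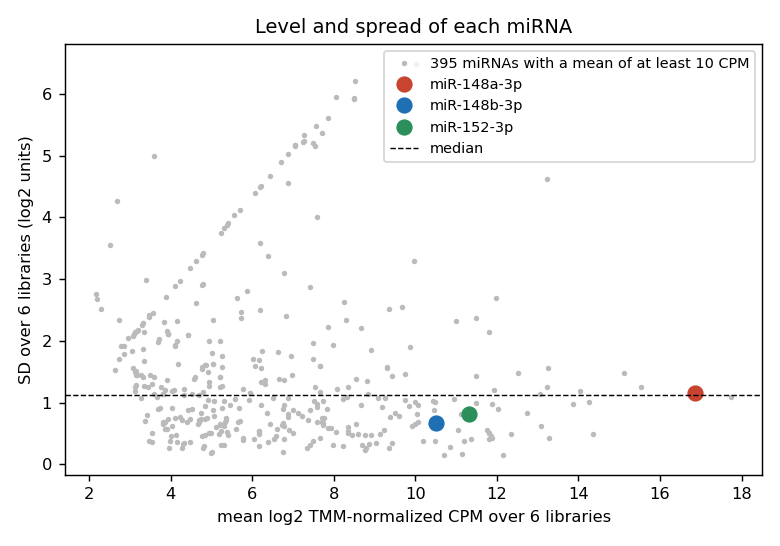
Mean log2 TMM-normalized CPM over the 6 libraries against its standard deviation, for the 395 miRNAs that averaged 10 CPM or more (grey) and the 3 members (coloured). miR-148a-3p lies near the median spread (dashed, 1.13) at a high level, and miR-148b-3p and miR-152-3p lie below it.

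How alike the members' patterns were was measured by the standard deviation, over libraries, of the log2 ratio between 2 miRNAs. A small value means that their ratio changes little, which also holds where both vary little. Over the 6 libraries the standard deviation was 0.73 between miR-148a-3p and miR-148b-3p. Here miR-148b-3p ranked 8 of 394 in its likeness to miR-148a-3p, while miR-148a-3p ranked 48 of 394 in its likeness to miR-148b-3p. miR-152-3p ranked 207 of 394 in its likeness to miR-148a-3p, with a value of 1.70 against a median of 1.66. This order rested on control 2. Over the other 5 libraries miR-152-3p ranked 22 of 394 (0.56) and miR-148b-3p ranked 78 (0.76).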

How the data were processed

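Small RNA of WAT from 3 control and 3 CIH libraries was sequenced by the study. The table deposited by the authors gives raw read counts, without normalization, for 707 mature miRNAs listed by accession. Trimming, aligner, miRBase release and the treatment of ambiguous reads are not given in the sources used here, and such choices could move reads between members that differ by 2 or 3 bases. Members are those of the selection rule, which pairs 3 accessions with names, and they were named by that rule alone. The members, tests and lists were chosen with earlier results of these data known. Lists of miRNAs typical of fat, cholesterol metabolism and other tissues, and the 5p arms, were planned and not run, because the accessions are not paired with names here.

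A miRNA was tested where its counts over the 6 libraries summed to 10 or more. edgeR 4.0.16 in R 4.3.3 was used with TMM factors, a quasi-likelihood test and no covariate besides group, and p-values were adjusted by Benjamini-Hochberg over all 633. Standard errors were derived from the fold change and F statistic. The criterion of an unadjusted p under 0.05 with at least 1.5-fold change takes the significance level of the study. Log2 CPM used a prior count of 2 and ratios a pseudocount of 0.5. Python 3.11.15 with scipy 1.17.1 gave the exact tests. The code was tested on simulated data. No pair of libraries agreed within counting noise. Alternatives were DESeq2 1.42.0, limma 3.58.1 voom, edgeR's exact test, other scalings and filters, a replicate block and leaving out libraries. Positions are from RefSeq GRCm38.p6 and GENCODE M21 (GRCm38), and no coordinates of the authors were used.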

Additional observations from a re-analysis of the deposited data

How the results depend on the processing

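Across 57 refits of the 3 members, 0 gave an adjusted p under 0.05, and the smallest adjusted p was 0.131, for miR-152-3p without control 3 in edgeR. An unadjusted p under 0.05 was reached in 1 of these refits, the same one, with 225 of all 614 miRNAs. The sign of the log2 fold change turned with upper-quartile factors for miR-148a-3p (-0.37) and miR-148b-3p (-0.20), where the median of all miRNAs moved to -0.52, for miR-148a-3p also without control 2 (-0.0947) and without control 3 (-0.0233), and without both control 1 and control 2 for miR-152-3p (0.32) and for the ratio of miR-148b-3p to miR-152-3p (-0.27). The fits without both libraries were chosen after seeing the data, rest on 1 control library, and assume that it varies like the CIH libraries. The causes were not tested. For miR-148a-3p the value was 0.84 with library totals, 0.95 with library sizes without the family and 0.73 with voom. The ratio of family counts to those outside the 5 most abundant miRNAs, in percent, differed by 16.2. When single libraries were left out, the log2 fold change lay between -0.0947 and 1.65 for miR-148a-3p, 0.0472 and 0.62 for miR-148b-3p and -1.41 and -0.18 for miR-152-3p. Likewise the ratio of miR-148a-3p to miR-148b-3p differed between groups by -0.0905 to 0.90, that of miR-148a-3p to miR-152-3p by 0.28 to 2.47, that of miR-148b-3p to miR-152-3p by 0.14 to 1.98, and the family share by 4.50 to 11.3 percentage points.

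The number of miRNAs with an adjusted p under 0.05 was 0 in 17 of 18 other settings, DESeq2 and limma voom included, and in the fit without both controls. The range was 0 to 118 when single libraries were left out, 118 being without control 3. By the unadjusted criterion, 16 of 633 miRNAs became 39 with upper-quartile factors, 26 with DESeq2, 29 with the exact test and 75 with voom, each of 633. The number was 8 of the 407 tested with filterByExpr. With a library left out it ran from 1 of 618 to 225 of 614.

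Same-numbered libraries deviated from their group means with correlations of 0.353, -0.116 and 0.0195, too few to decide on pairing. With the replicate block the log2 fold changes were 0.74, 0.43 and -0.75 for miR-148a-3p, miR-148b-3p and miR-152-3p, and 3 miRNAs met the unadjusted criterion. Exact sign-flip tests within numbers gave p = 0.5, 0.5 and 0.75 for the ratios in the order above and 0.5 for the share. The counting error of the members was at most 2.83%, and other effects of depth were not tested.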
